A study of Mus musculus with 10 samples.

Results

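Barx1 and Tcf21 mesenchyme was the set of cells in embryonic mouse pancreas that carried transcripts of both *Barx1* and *Tcf21*, a pair of transcription factor genes of visceral mesoderm. Its members were selected on their own counts of 9 genes. A cell was taken where it had at least 200 genes, at least 2 unique molecular identifiers (UMIs, each standing for 1 captured transcript) of *Barx1* and 1 of *Tcf21*, and a sum of at least 3 over the collagen genes *Col3a1*, *Col1a1* and *Col1a2*. Cells with any UMI of *Upk3b* (a mesothelial gene) or *Epcam* (an epithelial gene), or with more than 1 over *Nkx2-5* and *Tlx1* (genes of splenic mesenchyme), were left out. The rule found 1055 of 13386 mesenchymal cells, mesenchymal meaning a collagen sum of 3 or more, among 22944 cells of 5 libraries.

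Of these libraries, 4 were made with the version 1 (v1) 10x kit from live cells of Swiss Webster pancreata at E12.5, at E14.5 in 2 batches, and at E17.5. E12.5, the second E14.5 batch and E17.5 formed 1 batch, and the first E14.5 batch was collected on another day. The fifth was an E14.5 library made with the version 2 (v2) kit from Fev-Cre;ROSA26mTmG pancreata on C57BL/6J, in which Cre recombinase driven by *Fev*, an endocrine-lineage gene, switches a tdTomato reporter to GFP, and live cells of either colour were sorted. Every library was a pool of pancreata, so embryos could not be told apart and each library counted as 1 sample. Dissociation took 10 min at E12.5, 15 min at E14.5 and 30 min at E17.5, so stage and dissociation time cannot be told apart, and E12.5 and E17.5 had 1 v1 library each. Likewise strain, kit and sort cannot be told apart for the Fev-Cre library. The E12.5 library held 432 members, E14.5 batch 1 held 94 and batch 2 held 365, the Fev-Cre library 139 and E17.5 25. No member barcode occurred among the members of another library.

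*Barx1* is a homeobox gene known from the mesenchyme of the embryonic stomach, where it restrains Wnt signalling in the neighbouring epithelium through secreted Wnt antagonists, and it is also needed for the spleen. *Tcf21* encodes a basic helix-loop-helix factor of visceral mesenchyme that is needed in spleen, kidney and lung. The Id genes encode helix-loop-helix proteins without a DNA-binding domain, which bind basic helix-loop-helix partners and are induced by bone morphogenetic protein (BMP) signals.

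Members were compared with 4 classes of cells from the same libraries. Other mesenchyme was every remaining cell with a collagen sum of 3 or more (12331 cells). Tcf21-only cells (4048) had *Tcf21* but no *Barx1*, and Barx1-only cells (575) had 2 or more *Barx1* UMIs but no *Tcf21*, with the rest of the rule unchanged. Nkx2-5/Tlx1 cells (484) had at least 2 UMIs over these splenic genes and none of *Upk3b* or *Epcam*. Levels are given in CPM, for which the UMIs of all cells of a class in 1 library were added up per gene and divided by the class total, then multiplied by 1e6. Differences were tested with edgeR's quasi-likelihood test on the summed UMIs with the library as a block, and a gene was called at a Benjamini-Hochberg adjusted p below 0.05 and at least 2-fold. The 4 comparisons share the sums of the members, so they are not independent of each other. Members and other mesenchyme had median UMIs per cell of 4146.5 and 4339.5 at E12.5, 2716.5 and 2586 in E14.5 batch 1, 4419 and 3978.5 in batch 2, 6498 and 6701 in the Fev-Cre library, and 3344 and 2833 at E17.5. Haemoglobin genes took from 0.0128% (Fev-Cre) to 60.9% (E17.5) of the UMIs of a library, over all barcodes before the limit of 200 genes. At E17.5 2309 of 4635 barcodes met that limit, so this share is not that of the cells compared.

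The general mesenchyme genes were present in members. *Vim* (vimentin) stood at 1077, 644, 1185, 759 and 2625 CPM in members of the E12.5 library, the first and the second E14.5 batch, Fev-Cre and E17.5, the order kept in all lists of 5 values below, and at 1314, 543, 1207, 593 and 2282 CPM in other mesenchyme. *Pdgfrb* (platelet-derived growth factor receptor beta) was at 65.0 ± 14.3 CPM in members and 59.9 ± 9.33 CPM in other mesenchyme (SD, n = 5 libraries). *Pdgfra*, the alpha receptor, went the other way against other mesenchyme held to the rule's exclusions. It was lower in members there by -0.65 ± 0.12 on the log2 scale (SE, adjusted p = 1.5e-04 in edgeR's quasi-likelihood test), below 2-fold. Markers of other cell types were not absent from members, and those of red cells were high in most libraries. Over 10 erythroid markers the summed level in members ran from 1.94 to 21092 CPM with a median of 5105 CPM, against 75.3 to 64762 CPM with a median of 9099 CPM in other mesenchyme. Over 10 endothelial markers the summed level in members ranged from 19.4 to 90.5 CPM, against 54.1 to 129 CPM in other mesenchyme, and 3 to 8 of the 10 had no UMI in a member sum. Over 10 immune markers it ranged from 19.8 to 56.6 CPM against 45.4 to 85.3 CPM, and over 11 neural markers from 0 to 64.9 CPM against 34.6 to 52.4 CPM. Over 15 epithelial markers it ranged from 102 to 1665 CPM against 254 to 5868 CPM, and over 14 mesothelial markers from 297 to 547 CPM against 463 to 1092 CPM. In the Fev-Cre library *eGFP* was at 36.8 CPM in members, 138 CPM in other mesenchyme and 691 CPM in *Epcam* cells, meaning cells with at least 2 *Epcam* UMIs and a collagen sum under 3.

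The rule's own genes are given as a description only. *Barx1* (ENSMUSG00000021381, chr13:48662998-48666507, plus strand of GRCm38) stood at 639, 864, 629.8, 444 and 702 CPM in members and at 49.7 to 152 CPM in other mesenchyme. *Tcf21* (ENSMUSG00000045680, chr10:22817281-22820174, minus strand) stood at 792, 857, 639, 219 and 622 CPM in members, with 554, 239, 305, 35.7 and 248 CPM in other mesenchyme. *Tcf21* was lowest in the Fev-Cre library in both classes. At the edge of the rule, 523 members had exactly 2 *Barx1* UMIs and 919 cells fell short of it with 1. Medians of CPM were taken over the libraries with at least 20 such cells, 4 inside and 5 outside. E17.5, with 16 cells inside and 58 outside, entered only the outside medians, so the 2 sides cover unlike libraries. The median CPM was 349 just inside and 244 just outside for *Id2*, 633 and 403 for *Id3*, 283 and 197 for *Sfrp2*, and 322 and 282 for *Kcnj8*. For *Adrb3* it was 52.1 inside and 57.8 outside. At the *Tcf21* edge (321 members with 1 UMI, 575 cells with none), *Id2* was at 275 and 228 CPM, *Sfrp2* at 287 and 308 CPM and *Kcnj8* at 280 and 259 CPM.

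Members formed 12.7% of mesenchymal cells at E12.5 (432 of 3406, exact 95% binomial interval 11.6 to 13.8%), 5.24% in E14.5 batch 1 (4.25 to 6.37%), 10.4% in batch 2 (9.43 to 11.5%), 4.06% in the Fev-Cre library (3.43 to 4.78%) and 1.98% at E17.5 (25 of 1264, 1.28 to 2.91%). These intervals cover counting error only. The E14.5 batches lay further apart than their intervals. Since a rule on UMIs depends on depth, each cell was also thinned at random to 2000 UMIs and the rule applied again. Cells counted as mesenchymal here were deep enough and kept a collagen sum of 3 or more after thinning. The share was then 5.31% at E12.5 (102 of 1921 such cells) and 3.27% and 3.35% in the E14.5 batches. It was 0.379% in the Fev-Cre library and 0.993% at E17.5 (10 of 1007). The mesenchymal cells fell from 3406 to 1921 at E12.5, and from 3501 to 3101 in E14.5 batch 2, where 104 members were left. After thinning E12.5 had the highest and E17.5 the lowest share of the v1 libraries. The part of the lost mesenchymal cells in this order was not tested.

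**Figure D1:**
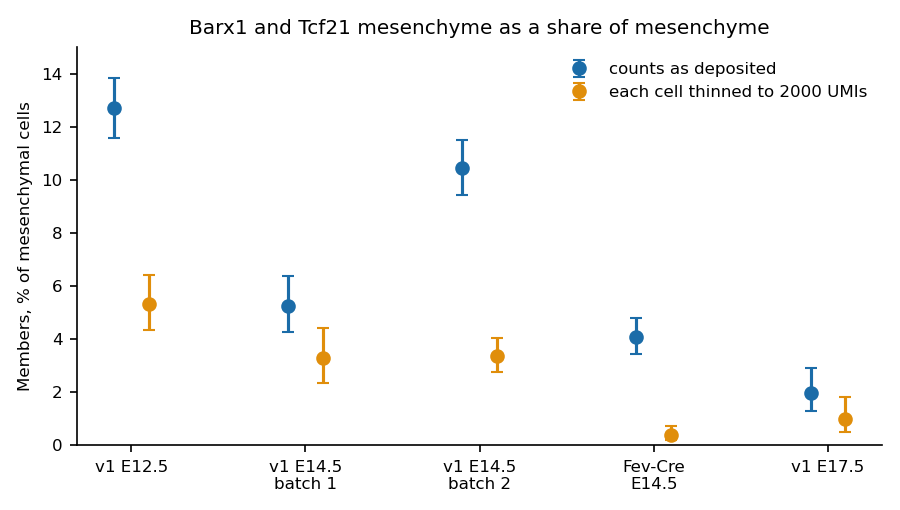
Share of Barx1 and Tcf21 mesenchyme among mesenchymal cells in each library, in percent (y axis), with the counts as deposited and with each cell thinned to 2000 UMIs. Points are shares and bars are exact 95% binomial intervals, which cover counting error. The thinned shares of the v1 libraries ran from 0.993% at E17.5 to 5.31% at E12.5.

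*Barx1* and *Tcf21* met in 1 cell about as often as the product of their shares gives. In mesenchymal cells thinned to 2000 UMIs under the rule's exclusions, 277 cells of E12.5 had a UMI of both against 254 from the product, a ratio of 1.09. The ratio was 1.07 and 1.03 in the E14.5 batches, 0.975 in the Fev-Cre library (41 cells) and 1.18 at E17.5 (40 cells).

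Against all other mesenchyme, 36 genes were called higher in members (0.297% of 12119 tested) and 368 lower (3.04%). Among the higher genes were both subunits of a potassium channel and an adrenergic receptor. *Kcnj8* and *Abcc9* encode the pore and the sulphonylurea receptor of an ATP-sensitive potassium channel of smooth muscle and pericytes, and are neighbours on chromosome 6. *Kcnj8* (ENSMUSG00000030247, chr6:142564837-142571614, minus strand) was at 376, 349, 313, 205 and 283 CPM in members and at 154, 137, 192, 81.2 and 179.7 CPM in other mesenchyme. No member value overlapped the other class, and the call was 2.06-fold higher (log2 difference 1.05 ± 0.11 SE, adjusted p = 5.1e-10, higher in 5 of 5 libraries). *Abcc9* (ENSMUSG00000030249, chr6:142587862-142702315, minus strand) was at 47.0, 90.0, 45.8, 69.8 and 45.3 CPM in members and 20.7, 41.4, 23.2, 20.6 and 25.5 CPM in other mesenchyme, with 4 member UMIs at E17.5. Again every member value lay above every other value, and the call was 2.34-fold (1.22 ± 0.14, adjusted p = 1.8e-08). Of 10 pericyte genes tested no other was called higher and *Anpep* was called lower, with a list median of 0.18 against -0.01 over all genes. With other mesenchyme held to the rule's exclusions, none of the 10 was called by edgeR and the list median was -0.10. There *Rgs5* (-0.57 ± 0.10) was lower, while *Kcnj8* and *Abcc9* stayed higher. Each had an adjusted p below 0.05 and was below 2-fold. *Pdgfrb* (-0.19 ± 0.11, adjusted p = 0.617) and *Anpep* (-0.59 ± 0.33, adjusted p = 0.600) did not pass in edgeR's quasi-likelihood test.

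*Adrb3*, the beta-3 adrenergic receptor (ENSMUSG00000031489, chr8:27225776-27250616, minus strand), was at 97.0, 57.6, 62.2, 55.3 and 11.3 CPM in members and at 38.1, 17.4, 18.4, 12.8 and 2.83 CPM in other mesenchyme. Members were higher in every library, and in both classes E12.5 had the highest and E17.5 the lowest value, with 1 member UMI at E17.5. The call was 3.19-fold (1.67 ± 0.14, adjusted p = 4.3e-12). *Map3k7cl* was at 8.68, 75.6, 28.8, 14.54 and 79.2 CPM in members and 2.79, 19.1, 12.2, 2.06 and 9.79 CPM in other mesenchyme (3.52-fold). *Cd83*, a surface glycoprotein best known from dendritic cells, was at 18.4, 64.8, 44.7, 15.5 and 45.3 CPM and 7.92, 21.8, 11.6, 7.74 and 9.53 CPM (2.84-fold). Both were higher in 5 of 5 libraries. The transcription factor *Six2* was rare, at 2.04, 10.8, 5.65, 5.82 and 11.3 CPM in members and 0.367, 1.47, 0.726, 0.732 and 0.773 CPM in other mesenchyme, and was called higher with the widest error of these genes (2.86 ± 0.47).

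*Id2*, *Id3* and *Sfrp2* were named as markers of these cells from the same data, so their levels are a description. *Id2* (ENSMUSG00000020644, chr12:25093799-25097140, minus strand) was at 342, 407, 393, 320.0 and 204 CPM in members and at 262, 167, 198, 164 and 91.2 CPM in other mesenchyme. The difference was 1.79-fold (0.84 ± 0.10), under the 2-fold limit. *Id3* (ENSMUSG00000007872, chr4:136143497-136145755, plus strand) was at 393, 835, 851, 510.0 and 622 CPM in members and 348, 351, 489.8, 206 and 404 CPM in other mesenchyme. It was close to other mesenchyme at E12.5 and further above it in the other 4 libraries. *Sfrp2*, a secreted Wnt antagonist (ENSMUSG00000027996, chr3:83766321-83774316, plus strand), was at 52.6, 691, 386, 259 and 67.9 CPM in members and at 38.9, 239, 198, 103 and 105 CPM in other mesenchyme. It was higher in members in all libraries but E17.5, where members had 6 UMIs.

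**Figure D2:**
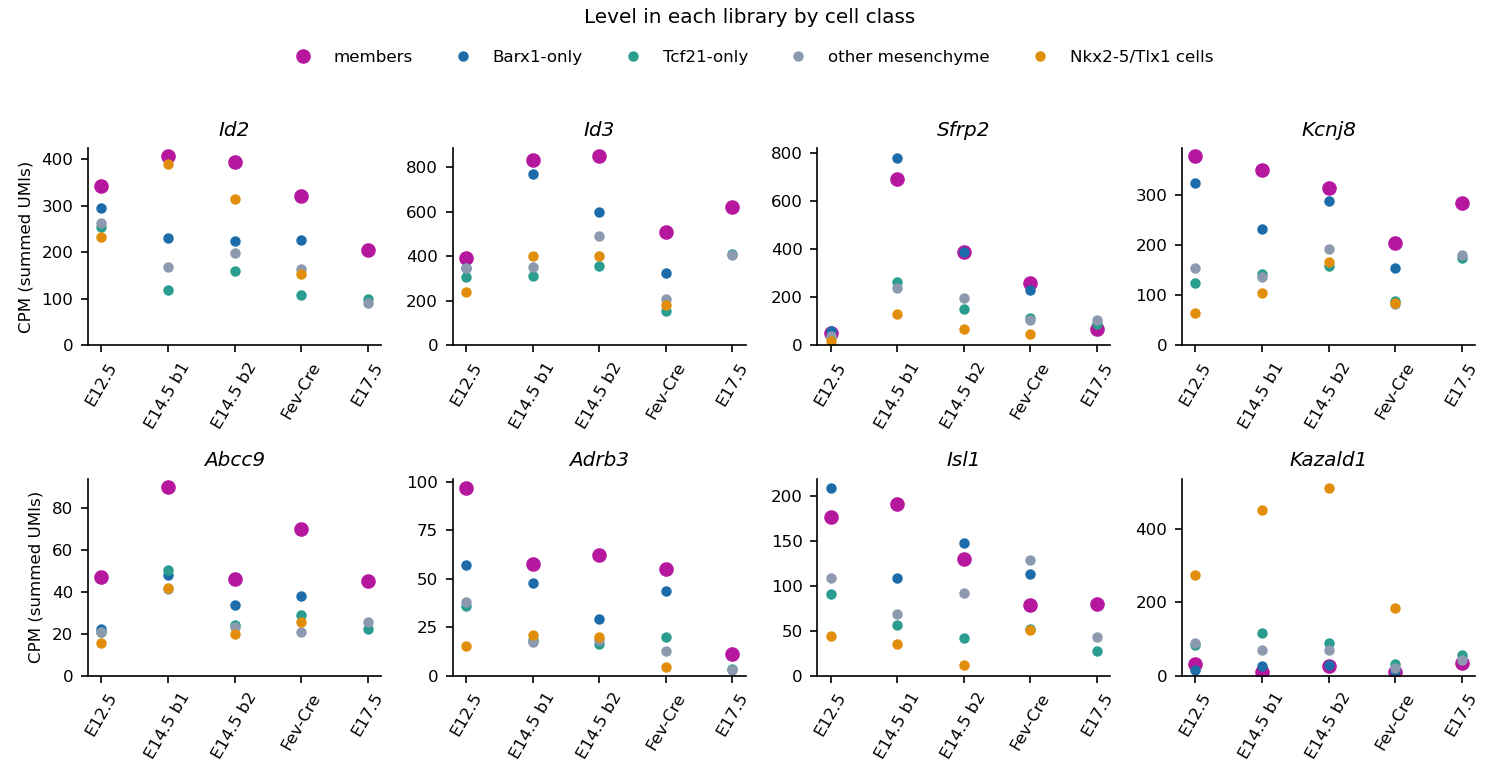
Level of 8 genes in CPM (y axis, 1 scale per gene) by library (x axis) in members, Barx1-only cells, Tcf21-only cells, other mesenchyme and Nkx2-5/Tlx1 cells, each point being the summed UMIs of 1 class in 1 library. Classes with fewer than 20 cells in a library are not drawn. *Kcnj8*, *Abcc9* and *Adrb3* were higher in members than in other mesenchyme in all 5 libraries, and *Kazald1* was lower.

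Detection per cell was described with every cell thinned to 2000 UMIs, as the share of cells with a UMI, without a test. *Sfrp2* was found in 9.86, 56.4, 41.0, 32.4 and 16.0% of members and in 6.78, 24.5, 23.1, 17.9 and 10.3% of other mesenchyme. *Epcam* cells, which should lack *Sfrp2*, had it in 0 to 1.55%. At E17.5 the share rests on 4 of 25 members and goes against the CPM, so no order is read there. *Id3* was found in 35.2, 62.8, 55.7, 47.5 and 52.0% of members, in 33.0, 33.0, 37.4, 22.9 and 32.3% of other mesenchyme and in 42.5, 25.5, 25.6, 15.9 and 5.23% of *Epcam* cells. At E12.5 its share in members was below that in *Epcam* cells. *Id2* was found in 40.6, 41.0, 38.2 and 38.8% of members and, at E17.5, in 3 of 25, in 31.6, 20.1, 24.2, 17.6 and 12.51% of other mesenchyme and in 50.3, 38.7, 41.2, 31.7 and 47.7% of *Epcam* cells, so epithelium carried it as well. In E14.5 batch 2 the median depth before thinning was 4419 UMIs in members and 5091.5 in *Epcam* cells.

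Markers of other cell types were among the lower genes. The rule leaves out cells with *Upk3b*, *Epcam* or the splenic genes, and sets no limit on immune, red or endothelial genes. Of 15 epithelial markers tested 14 were called lower (median -1.995), of 12 mesothelial markers 9 (median -1.94), of 8 immune markers 4, of 9 erythroid markers 3 and of 4 endothelial markers 1. Of 2 splenic-type markers tested outside the rule's own genes none was called by edgeR, and 1 had an adjusted p below 0.05 downward. Of all 12119 genes 483 had such an adjusted p downward. *Gcg* (glucagon) was at 21.4, 25.2, 36.2, 245 and 11.3 CPM in members and at 25.7, 141, 327, 2038 and 19.3 CPM in other mesenchyme. *Hba-a1* (an alpha globin) was at 3006, 1854, 7944, 0 and 385 CPM in members and 3143, 2211, 10626, 24.5 and 25493 CPM in other mesenchyme. The part of stray endocrine and red cell RNA in these differences was not tested. When other mesenchyme was held to the same exclusions as members, 19 genes were called higher (0.165% of 11538) and 36 lower (0.312%), of which 12 and 28 were also called against all other mesenchyme. The 19 hold the marker *Id2*. Of the 15 epithelial markers 1 was then called lower, and the mesothelial median was -0.23. With cells that carried genes of another type left out of both classes, 11 genes were called higher and 26 lower. That setting left 2 members in the Fev-Cre library, so it rests on 4 libraries and changed both the cells and the libraries. With all cells kept, the counts were 22 and 192 without the Fev-Cre library, and without E12.5 the higher genes numbered 62.

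Under the matched exclusions *Id4*, an Id gene not among the named markers, was called higher by 1.05 ± 0.14 on the log2 scale. As a description, the markers differed by 1.05 ± 0.08 (*Id2*), 0.94 ± 0.09 (*Id3*) and 0.88 ± 0.08 (*Sfrp2*). *Adrb3* (1.26 ± 0.12), *Map3k7cl* (1.38 ± 0.21) and *Cd83* (1.17 ± 0.18) were past 2-fold, whereas *Kcnj8* (0.97 ± 0.08) and *Abcc9* (0.89 ± 0.12) came just under it. Over the 10 genes tested of the list of Id proteins and other BMP targets, which holds *Id2* and *Id3*, the median was 0.64, against -0.01 over all 11538 genes. *Kazald1*, a secreted protein related to the IGF-binding proteins, differed by -1.45 ± 0.14. Against all other mesenchyme *Kazald1* was at 31.1, 10.8, 27.1, 9.70 and 33.9 CPM in members and 89.5, 70.3, 70.6, 20.1 and 42.5 CPM in the rest, called 2.77-fold lower and lower in 5 of 5 libraries.

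Signalling lists held few calls against all other mesenchyme. Since the rule removes *Upk3b* and *Epcam* cells from members only, values under the matched exclusions stand beside these calls for most of them. Of 8 Wnt antagonists tested *Frzb* was called lower (not by DESeq2) and *Dkk2* (0.92 ± 0.17) and 1 other gene that is no marker had an adjusted p below 0.05 upward without reaching 2-fold, as against 1.86% of all genes upward at that adjusted p. The marker *Sfrp2* (0.98 ± 0.12) is a description and enters the list median of -0.13. Of 8 Wnt and R-spondin ligands *Rspo1*, which is also a mesothelial gene, was called lower, and it differed by -0.10 ± 0.25 under the exclusions. Of 10 hedgehog genes 1 passed the adjusted p below 2-fold (median 0.25), and of 15 Hox genes 3 did so upward while *Hoxa7* was called lower (median 0.25), a call not kept under the exclusions (-0.34 ± 0.46). Of 19 FGF genes *Fgf9* was called lower, and it was not called under the exclusions (-0.37 ± 0.37). Among 33 transcription factors of the splanchnic field *Six2* was called higher, and *Gata4*, *Gata6*, *Hand1*, *Nr2f1* and *Sox9* lower. Under the exclusions *Hand1* was the 1 of 32 called lower, and *Gata6* (-0.61 ± 0.14), *Nr2f1* (-0.76 ± 0.22) and *Sox9* (-0.44 ± 0.33) were not called. *Hand1*, a basic helix-loop-helix factor of lateral mesoderm, was at 3.06, 0, 0, 0.970 and 0 CPM in members and at 20.02, 4.21, 5.74, 2.13 and 6.18 CPM in other mesenchyme. *Prrx1*, a homeobox factor of mesenchyme, differed by 0.77 ± 0.10 from all other mesenchyme and by 0.31 ± 0.08 under the exclusions, below 2-fold in both.

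Among 32 chemokines and growth factors *Ccl11*, the chemokine eotaxin, was among those called higher and *Sema3c* was called lower, while *Igf1* differed by 0.65 ± 0.10. *Ccl11* was at 6.13, 25.2, 16.96, 10.7 and 56.6 CPM in members and 1.17, 13.7, 9.15, 2.79 and 59.2 CPM in other mesenchyme, higher in 4 of 5 libraries. Under the exclusions none of the 31 genes tested of this list was called by edgeR in either direction. Of the 31, 3 had an adjusted p below 0.05 upward and 5 downward, as against 124 and 116 of all 11538 genes. *Ccl11* differed by 0.63 ± 0.24 and *Sema3c* by -0.55 ± 0.38. The elastic fibre gene *Mfap5* was called higher among 43 matrix genes (2.01-fold), and *Col18a1* and *Npnt* were called lower. None of these 3 calls was kept under the exclusions (0.67 ± 0.13, -0.56 ± 0.19 and -0.37 ± 0.20). Of 28 cell cycle genes the inhibitor *Cdkn1a* was called lower, also not under the exclusions (-0.36 ± 0.35), and the median was 0.05. With both classes under the exclusions, 5 of the 28 had an adjusted p below 0.05 upward, none of them by 2-fold, and none downward. Of all 11538 genes 124 had such an adjusted p upward, and the list median was 0.12.

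**Figure D3:**
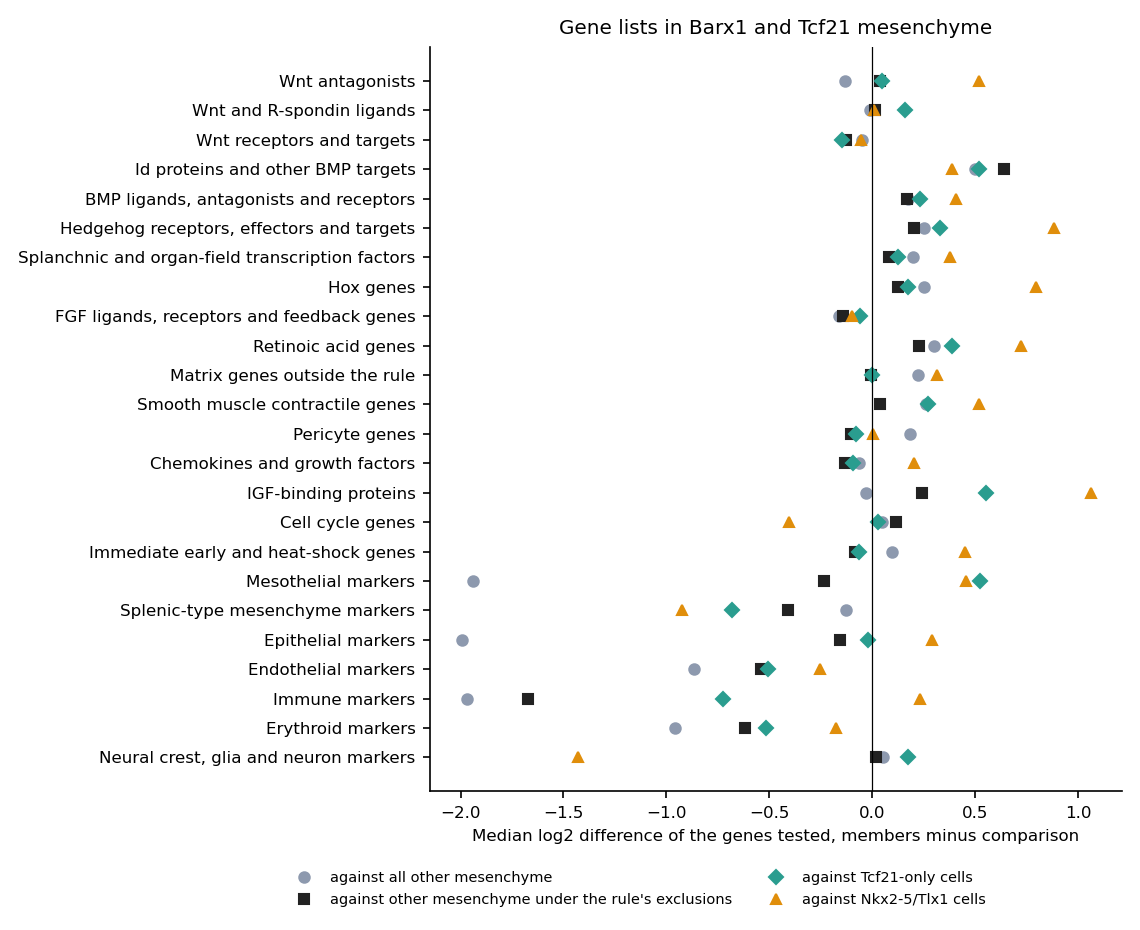
Median log2 difference of the genes tested in each list (x axis), members minus comparison, against all other mesenchyme, other mesenchyme under the rule's exclusions, Tcf21-only cells and Nkx2-5/Tlx1 cells. Epithelial and mesothelial markers lay at -1.995 and -1.94 against all other mesenchyme, and IGF-binding proteins lay at 1.06 against Nkx2-5/Tlx1 cells.

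The comparison with Tcf21-only cells asked what went with *Barx1* among cells that all carried *Tcf21*. Here 52 genes were called higher in members (0.486% of 10696) and 31 lower (0.29%). Higher genes included the markers *Id2*, *Id3* and *Sfrp2*, and also *Id4*, the channel pair, *Isl1* and genes of retinoic acid handling. *Isl1*, a LIM homeobox factor of foregut mesenchyme and endocrine cells (ENSMUSG00000042258, chr13:116298281-116309689, minus strand), was at 177, 191, 130.0, 78.5 and 79.2 CPM in members and at 90.9, 55.9, 41.9, 52.0 and 27.7 CPM in Tcf21-only cells. In E12.5, E14.5 batch 1, batch 2 and Fev-Cre, Barx1-only cells had it at 209, 109, 147 and 113 CPM. That was above members in all of these but E14.5 batch 1. Against Tcf21-only cells members were higher in every library, and the call was 2.21-fold (1.15 ± 0.11, adjusted p = 6.0e-12). Of 15 epithelial and endocrine markers tested *Pyy* and *Spint2* were also called higher, with a list median of -0.02. *Pyy*, the hormone peptide YY, was at 6.64, 781, 28.3, 542 and 22.6 CPM in members and 8.08, 39.9, 27.0, 238 and 22.0 CPM in Tcf21-only cells, furthest apart in E14.5 batch 1. The summed level of the epithelial list ran from 102 to 1665 CPM in members and from 134 to 1209 CPM in Tcf21-only cells, and its part in the *Isl1* call was not tested. *Kcnj8* was 2.27-fold higher (1.18 ± 0.09) and *Abcc9* 2.05-fold (1.03 ± 0.14), with a median of -0.08 over the 9 pericyte genes tested. Of 9 Id and BMP target genes tested *Id4* was called higher (1.29 ± 0.16). The markers, described as above and not as support, differed by 1.08 ± 0.10 (*Id2*), 1.01 ± 0.10 (*Id3*) and 1.103 ± 0.09 (*Sfrp2*). With *Id2* and *Id3* in it the list median was 0.52 against -0.01 over all genes. *Id2* was at 254, 118, 159, 107 and 98.8 CPM in Tcf21-only cells, below the member value of the same library each time. *Sfrp2* was at 33.1, 262, 150.4, 115 and 86.7 CPM there, below members in all libraries but E17.5.

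Promoters are shown for *Sfrp2*, a marker, and for *Kcnj8* and *Isl1*, which were called higher than in Tcf21-only cells. Each is the 250 bases before the RefSeq start in GRCm38.p6, 5′ to 3′ on the gene's strand, in lower case, with the E-box CAGCTG in capitals. E-boxes of the form CANNTG are bound by basic helix-loop-helix proteins, the family of Tcf21. The regions are chr3:83766071-83766320 (plus strand), chr6:142571615-142571864 (minus strand) and chr13:116309689-116309938 (minus strand).
Sfrp2: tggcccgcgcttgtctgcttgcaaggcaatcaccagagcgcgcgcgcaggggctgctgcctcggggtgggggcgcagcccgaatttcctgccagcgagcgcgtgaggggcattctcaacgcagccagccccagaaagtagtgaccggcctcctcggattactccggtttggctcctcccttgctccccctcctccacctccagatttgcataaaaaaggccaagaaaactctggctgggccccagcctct
Kcnj8: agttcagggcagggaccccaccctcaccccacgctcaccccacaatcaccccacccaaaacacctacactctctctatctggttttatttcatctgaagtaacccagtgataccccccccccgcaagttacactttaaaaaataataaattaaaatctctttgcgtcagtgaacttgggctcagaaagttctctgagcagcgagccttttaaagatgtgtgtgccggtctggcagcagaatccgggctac
Isl1: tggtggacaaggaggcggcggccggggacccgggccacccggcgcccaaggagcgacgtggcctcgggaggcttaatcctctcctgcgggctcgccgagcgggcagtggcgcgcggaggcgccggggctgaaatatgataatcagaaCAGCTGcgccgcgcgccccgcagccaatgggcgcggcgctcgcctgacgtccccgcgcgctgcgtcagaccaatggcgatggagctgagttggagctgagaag
CAGCTG, which reads alike on both strands, occurred once in the *Isl1* window, 103 bases before the start, and not in the letters of the *Sfrp2* and *Kcnj8* windows. Other letters of the form CANNTG are not in capitals. The *Kcnj8* window held 1 such match, the *Isl1* window no further one and the *Sfrp2* window none. CAGCTG occurred in 4271 of 32851 mouse promoters of the RefSeq table (13.0%) and CANNTG in 21753 (66.2%), over the same 250 bases. A match is a description of the letters, not a bound site.

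Of 14 retinoic acid genes tested *Crabp2*, which carries retinoic acid, was called 2.58-fold higher and *Dhrs3*, which reduces retinal, 3.11-fold. *Crabp2* was at 49.5, 21.6, 25.4, 33.9 and 0 CPM in members and at 20.1, 7.98, 6.71, 15.9 and 0 CPM in Tcf21-only cells. In Barx1-only cells of the first 4 of these libraries it was at 77.2, 39.2, 39.3 and 51.0 CPM, above members each time. *Foxf1*, a hedgehog-responsive forkhead gene of splanchnic mesoderm, was called 2.56-fold higher than in Tcf21-only cells. *Cav1* (caveolin, the coat protein of caveolae) was called 3.72-fold higher (1.89 ± 0.22), at 21.4, 57.6, 59.4, 9.70 and 113 CPM in members and 7.93, 16.8, 8.13, 8.53 and 16.3 CPM in Tcf21-only cells. *Slc9a3r1*, a membrane scaffold, was called 2.49-fold higher, and *Lrrn4* and *Krt19*, both on the mesothelial list with *Cav1*, were also called higher. The 9 mesothelial markers tested had a median of 0.53. Their summed level ran from 185 to 312 CPM in Tcf21-only cells and from 297 to 547 CPM in members, and its part in these calls was not tested. Of 6 IGF-binding proteins 3 had an adjusted p below 0.05 upward, below 2-fold, as against 1.55% of all genes at that adjusted p (median 0.55), among them *Igfbp2* (0.77 ± 0.09) and *Igfbp5* (0.78 ± 0.09).

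Lower in members than in Tcf21-only cells were *Kazald1* (3.25-fold), *Hand1*, *Bves* (2.47-fold), *Clca3a1* (2.32-fold), *Rgs4*, a regulator of G protein signalling (2.20-fold), the hyaluronan synthase *Has2* (2.40-fold) and *Inhba*, an activin subunit (at most 5 UMIs in members of any library). *Kazald1* was at 83.7, 116, 88.0, 31.8 and 55.4 CPM in Tcf21-only cells, above members in every library. Of 9 erythroid markers 3 were called higher and 3 lower. *Hbb-y*, an embryonic beta globin, was at 2731, 0, 1482, 0 and 0 CPM in members and 2176, 10.4, 71.4, 0 and 1.42 CPM in Tcf21-only cells, so members were higher in only the E12.5 library and E14.5 batch 2. The part of the haemoglobin content of the libraries in these 6 calls was not tested. Without E14.5 batch 2 the genes called higher numbered 32. DESeq2 with the library in its design called 11 higher, 8 of them among the 52, and 5 lower, 4 of them among the 31. It did not call *Crabp2*, *Dhrs3*, *Foxf1*, *Cav1*, *Slc9a3r1*, *Lrrn4*, *Krt19*, *Pyy*, *Spint2*, *Hand1*, *Bves*, *Clca3a1*, *Has2* or *Inhba*.

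The comparison with Barx1-only cells asked what went with *Tcf21* among *Barx1* cells. Here 6 genes were called higher in members (0.0663% of 9047) and 80 lower (0.884%). The E17.5 library held fewer than 20 Barx1-only cells, so 4 libraries entered, given below in the order E12.5, E14.5 batch 1, batch 2 and Fev-Cre. Of 10 mesothelial markers tested 8 were called lower (median -2.17 against 0.00 over all genes), although neither class had a *Upk3b* UMI by rule. *Cav1* was at 177, 205, 335 and 133 CPM in Barx1-only cells and 21.4, 57.6, 59.4 and 9.70 CPM in members. The values did not overlap, and the call was 6.63-fold (-2.73 ± 0.16). *Upk1b*, *Klk13*, *Gpm6a* and *Podxl* were also called lower. In members of the 4 libraries *Upk1b* had 5, 0, 1 and 4 UMIs, *Klk13* 18, 0, 1 and 0, and *Gpm6a* 2, 1, 9 and 0, so their folds are not given. *Podxl*, a surface sialomucin of podocytes and mesothelium, was at 49.8, 52.3, 51.9 and 23.1 CPM in Barx1-only cells and 3.06, 10.8, 6.22 and 1.94 CPM in members.

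*Fgf9* (8.37-fold), *Rspo1* (4.08-fold), *Pdgfc* (3.11-fold) and *Bmp4* (2.26-fold) were called lower in members, each the 1 call of its list (of 9 FGF genes, 7 Wnt and R-spondin ligands, 26 chemokines and growth factors, and 8 BMP genes tested), as was *Aldh1a2*, which makes retinoic acid (2.67-fold). *Aldh1a2* was at 34.9, 95.9, 109 and 66.0 CPM in Barx1-only cells and 10.7, 39.6, 41.3 and 25.2 CPM in members. *Igfbp5* (2.01-fold), *Igfbp6* (2.52-fold) and *Foxf1* (3.08-fold) were also called lower. In cells with 2 or more *Upk3b* UMIs, *Aldh1a2* ran from 75.7 to 358 CPM and *Cav1* from 429.8 to 1494 CPM over the 5 libraries. The part of mesothelial cells without a *Upk3b* UMI in these differences was not tested.

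The genes called higher than in Barx1-only cells were few, and DESeq2 with the library in its design called none of the 6 (0 genes higher, 117 at an unadjusted p under 0.05). *Shisa2*, an inhibitor of Wnt and FGF receptor maturation, was at 96.0, 3.6005, 24.3 and 18.4 CPM in members and 27.4, 0, 2.80 and 10.9 CPM in Barx1-only cells (3.01-fold, 1.59 ± 0.30). *Fabp7*, a fatty acid binding protein on the neural marker list, was called 2.45-fold higher, and *Ckap2l* and *Casc5*, which act at the mitotic spindle and kinetochore, 2.13- and 2.06-fold. Of 27 cell cycle genes tested 7 had an adjusted p below 0.05 and were higher in members, none by 2-fold, as against 0.553% of all genes at that adjusted p, with a median of 0.30. Among them were *Top2a* (0.73 ± 0.11), *Cenpf* (0.87 ± 0.15) and *Cdk1* (0.61 ± 0.10). *Id2* (0.56 ± 0.09), *Id3* (0.39 ± 0.08) and *Abcc9* (0.78 ± 0.18) were higher in 4 of 4 libraries and below 2-fold. *Sfrp2* was at 59.8, 780.2, 388 and 228 CPM in Barx1-only cells, next to 52.6, 691, 386 and 259 CPM in members, and *Kcnj8* at 324, 231, 287 and 154 CPM next to 376, 349, 313 and 205 CPM. The number of higher calls was 2 without the Fev-Cre library, 10 without E14.5 batch 1 and 11 without E12.5, and the lower calls numbered 50 without Fev-Cre. DESeq2 called 42 lower, without *Bmp4*, *Foxf1*, *Igfbp5* and *Igfbp6*.

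**Figure D4:**
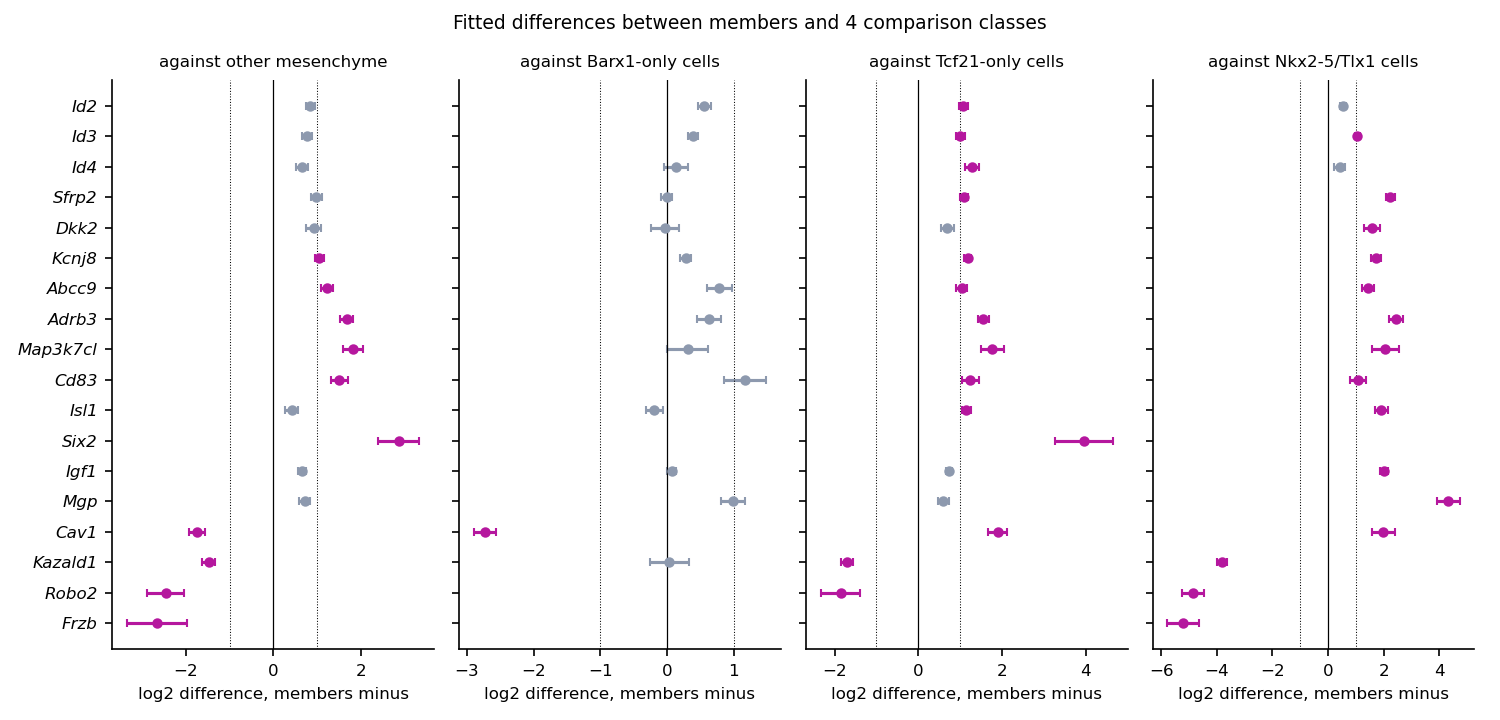
Fitted log2 difference (x axis, members minus comparison) of 18 genes against 4 comparison classes, with bars of 1 SE. Coloured points were called (adjusted p below 0.05 and at least 2-fold, the limit being the dotted lines), grey points were not, and genes not tested in a comparison are blank. The points of *Id2*, *Id3* and *Sfrp2* are a description. *Cav1* was higher in members than in Tcf21-only cells (1.89 ± 0.22) and lower than in Barx1-only cells (-2.73 ± 0.16). The points of *Frzb* and of *Six2* rest on 3 UMIs or fewer in 1 class of a comparison.

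Against Nkx2-5/Tlx1 cells, the mesenchyme of splenic type, 143 genes were called higher in members (1.65% of 8685) and 76 lower (0.875%), in the same 4 libraries, since E17.5 had fewer than 20 such cells. Genes called higher included the markers *Id3* and *Sfrp2*, and also growth factor, retinoic acid, Hox and matrix genes. Of 22 immediate early and heat-shock genes tested, which respond to cell dissociation among other stresses, 9 had an adjusted p below 0.05 upward and none downward, as against 3.56% of all genes upward at that adjusted p, with a median of 0.45. *Atf3*, a stress-induced factor, was the 1 call, at 3.57, 43.2, 83.7 and 26.2 CPM in members and 1.94, 0, 17.3 and 23.4 CPM in Nkx2-5/Tlx1 cells. The summed level of the list in the 4 libraries was 2693, 8009, 10001 and 4907 CPM in members and 2272, 6591, 7542 and 4939 CPM in Nkx2-5/Tlx1 cells. In the other 3 comparisons at most 1 of the 22 passed that adjusted p. Markers of other cell types were called too, *Pyy*, *Spint2* and *Cav1* higher and *Fabp7* and *Sox9* lower among them. *Pyy* was at 6.64, 781, 28.3 and 542 CPM in members and 17.46, 34.8, 29.6 and 251 CPM in Nkx2-5/Tlx1 cells, higher in members in 2 of 4 libraries. The part of these genes and markers in the other calls of this comparison was not tested.

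The marker *Sfrp2* was at 19.4, 132, 66.7 and 46.7 CPM in Nkx2-5/Tlx1 cells and differed by 2.24 ± 0.16, as a description. *Dkk2*, another Wnt antagonist, was called 2.999-fold higher. *Frzb*, also a Wnt antagonist, was called lower, at 20.04, 27.8, 39.5 and 16.99 CPM in Nkx2-5/Tlx1 cells and 0, 0, 1.13 and 0.970 CPM in members, where it had 3 UMIs in all. *Wnt4*, *Lef1* and *Ror1* were called 2.56-, 2.81- and 2.59-fold higher, and *Gli3*, a hedgehog effector, 2.33-fold. These folds rest on at most 8, 12, 8 and 13 UMIs in Nkx2-5/Tlx1 cells of any library.

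*Mgp*, an inhibitor of calcification that binds BMPs, was called higher, at 17.4, 68.4, 101 and 60.1 CPM in members and 0, 6.95, 2.47 and 6.37 CPM in Nkx2-5/Tlx1 cells. The latter rest on 0, 1, 1 and 3 UMIs in Nkx2-5/Tlx1 cells, so no fold is given. Podoplanin (*Pdpn*) and *Tm4sf1*, with at most 2 and 7 UMIs in Nkx2-5/Tlx1 cells of any library, and *Adrb3* (5.44-fold) were also called higher. *Robo2*, a Slit receptor, was called lower, at 51.1, 69.5, 61.7 and 27.6 CPM in Nkx2-5/Tlx1 cells and 3.06, 0, 0.565 and 0.970 CPM in members, on 6, 0, 1 and 1 UMIs. The apelin receptor ligand *Apela* was called lower, at 25.9, 76.5, 61.7 and 42.5 CPM in Nkx2-5/Tlx1 cells, and had 12 UMIs in members of E12.5 and 0 in the other 3 libraries. Also lower was *Kazald1* (14.2-fold, -3.83 ± 0.18). *Kazald1* was at 275, 452, 511 and 185 CPM in Nkx2-5/Tlx1 cells and 31.1, 10.8, 27.1 and 9.70 CPM in members. The values did not overlap.

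Of 12 Hox genes tested *Hoxa5*, *Hoxb6*, *Hoxc4* and *Hoxc5* were called higher in members (2.27-, 2.99-, 2.67- and 2.95-fold), and the list median was 0.79 against -0.01 over all genes. Of 12 retinoic acid genes *Crabp1* (2.94-fold), *Crabp2* (3.38-fold), the receptor *Rarb* (2.65-fold), *Dhrs3* and *Aldh1a2* were higher, and *Cyp26b1*, which degrades retinoic acid, was 5.37-fold lower. *Igf1* was at 245, 554, 422 and 458 CPM in members and 42.7, 83.4, 114 and 178 CPM in Nkx2-5/Tlx1 cells (4.04-fold, 2.01 ± 0.15). Of 5 IGF-binding proteins *Igfbp2*, *Igfbp3* and *Igfbp7* were called higher (2.98-, 2.09- and 2.65-fold). The chemokine *Cxcl12* (2.16-fold) and *Figf*, a lymphatic growth factor (4.06-fold), were higher, while *Kitl* (2.41-fold) and *Vegfa* (2.67-fold) were lower. The folds of *Figf* and *Hoxc5* rest on at most 8 UMIs in Nkx2-5/Tlx1 cells of any library. Of 28 transcription factors *Isl1* (3.77-fold), *Osr1* (3.12-fold), *Prrx1* and *Zfhx4* were among those called higher and *Nkx2-3* and *Sox9* were called lower.

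As a description, the marker *Id3* differed from Nkx2-5/Tlx1 cells by 1.06 ± 0.10 and *Id2* by 0.54 ± 0.11. *Msx1*, a BMP target, was called 2.29-fold lower. Matrix genes called higher numbered 8 of 39, among them *Dcn* (decorin, 2.61-fold), *Lum* (lumican, 2.59-fold), *Col12a1* (3.72-fold) and *Mfap5* (2.89-fold). The folds of *Col12a1* and *Mfap5* rest on at most 8 and 10 UMIs in Nkx2-5/Tlx1 cells of any library. *Kcnj8* was at 64.7, 104, 165 and 85.0 CPM in Nkx2-5/Tlx1 cells (3.33-fold, 1.73 ± 0.18). Of 27 cell cycle genes 10 had an adjusted p below 0.05 and were lower in members and 2 were higher, all below 2-fold, as against 2.34% of all genes lower and 3.56% higher at that adjusted p (median -0.40), with *Top2a* at -0.64 ± 0.10 and *Cdk1* at -0.44 ± 0.09. Without E12.5 the calls numbered 94 higher and 48 lower, and without E14.5 batch 2 the lower calls numbered 46. DESeq2 called 72 higher, 66 of them among the 143, and 33 lower, all among the 76. It did not call *Wnt4*, *Lef1*, *Ror1*, *Gli3*, *Hoxc4*, *Hoxc5*, *Aldh1a2*, *Msx1*, *Vegfa*, *Atf3*, *Pyy*, *Spint2*, *Cav1* or *Fabp7*.

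Across stages members were described without a test, since E12.5 and E17.5 had 1 v1 library each and the 25 cells of E17.5 held 88407 UMIs. *Igfbp7*, an IGF-binding protein of vessels and stroma, was at 3.57, 122, 151 and 1856 CPM in the 4 v1 libraries by stage, 519-fold above E12.5. Other mesenchyme differed 211-fold for the same gene. *Nupr1*, a stress-induced nuclear protein, stood at 1.53, 32.4, 30.5 and 419 CPM, a ratio of 273 on 3 UMIs at E12.5 (counting interval 86.6 to 1386). *S100a16* went from 4.08 to 588 CPM, *Mfap5* from 7.15 to 928 CPM and the angiotensin receptor *Agtr2* from 5.62 to 634 CPM, with 25.1-, 118- and 178-fold in other mesenchyme.

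*Hmga2*, a chromatin protein of embryonic cells, was at 673, 79.2, 49.2 and 0 CPM, so it was at least 19.8-fold lower at E17.5 than at E12.5 when 3 counts are allowed for the E17.5 library, and it was 239.7-fold lower in other mesenchyme. *Nnat* (neuronatin) went from 817 to 11.3 CPM with 1 UMI left, a ratio of 72.2 (12.9 to 2853), and *Cd24a*, a surface glycoprotein, from 613 to 22.6 CPM with 2 UMIs, a ratio of 27.1 (7.48 to 224). *Wdr18* went from 141 to 11.3 CPM with 1 UMI (12.45, interval 2.22 to 494) and *Tgfbi*, a matrix protein, from 405 to 33.9 CPM with 3 UMIs (11.9, interval 4.07 to 58.0). The named genes came from 2846 with at least 20 UMIs in the higher of these libraries and an E14.5 mean between their levels, with no fold limit and no test. That floor was 10.2 CPM in members of E12.5 and 226 CPM in those of E17.5, so the numbers of genes in each direction cannot be compared. Each of the 10 named genes went the same way in other mesenchyme, so these stage differences were not shown to be particular to members.

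**Figure D5:**
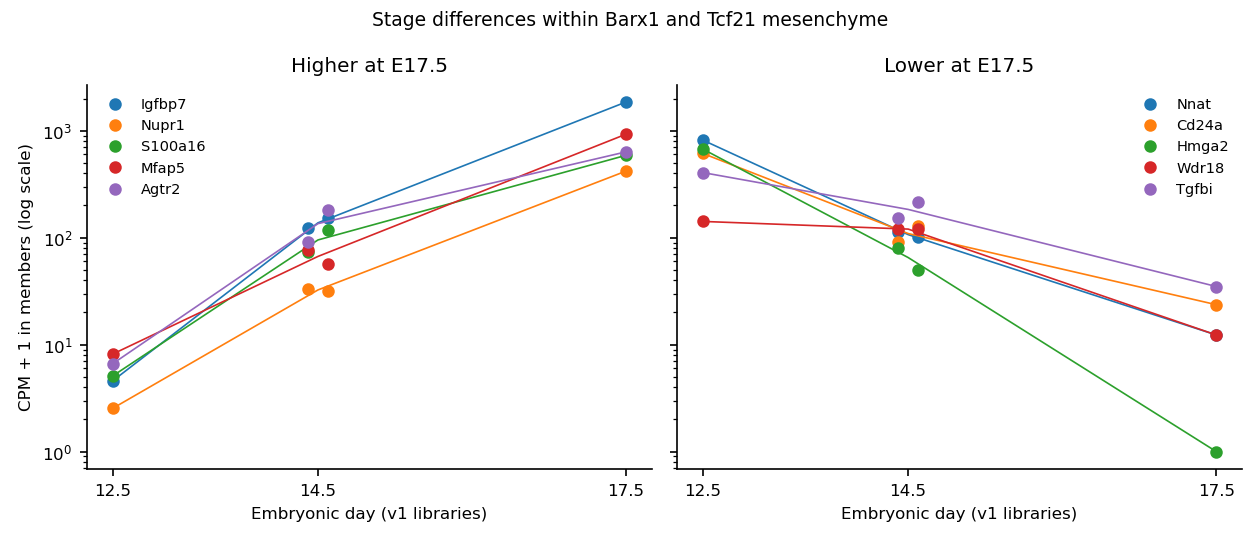
Level of the 10 named stage genes in members of the v1 libraries, as CPM + 1 on a log axis against embryonic day, with the E14.5 batches side by side and lines through their mean. *Igfbp7* went from 3.57 to 1856 CPM, and *Hmga2* from 673 to 0 CPM, between E12.5 and E17.5.

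The v2 library of Swiss Webster E12.5 pancreata, from which cells with CD140a (*Pdgfra*, a surface receptor of mesenchyme) had been depleted, is not named by the rule and held 125 cells that met it, 2.68% of 4659 mesenchymal cells. Of the 36 genes called higher against other mesenchyme 28 were also higher in these cells (77.8%, against 49.9% of all genes tested). The rule takes the same cell types out of members here, which can also raise other mesenchyme genes, so this share is no independent check. For the same reason the genes called lower are not counted in this way. In a check added after the data were seen, both classes were held to the exclusions in every library, which left 1468 cells of other mesenchyme in this one. Of the 19 genes then called higher 13 were also higher here (68.4%, against 53.5% of all genes tested), and of the 34 called lower that had UMIs 22 were also lower (64.7%, against 46.5%). The 19 and the 13 hold the marker *Id2*, which was named from the same data and is a description. *Kcnj8* was at 245 and 139 CPM in the 125 cells and in other mesenchyme of that library, *Abcc9* at 70.6 and 18.1 CPM, and *Adrb3* at 79.0 and 13.3 CPM, with 185, 29.5 and 30.7 CPM in other mesenchyme under the exclusions. *Isl1* was at 195 and 132 CPM, and *Dkk2* at 23.9 and 7.49 CPM. *Id2*, *Id3* and *Sfrp2* were at 225 and 226 CPM, 279 and 407 CPM and 19.1 and 24.5 CPM, and at 199, 359 and 29.8 CPM in other mesenchyme under the exclusions. *Map3k7cl*, called higher in the 5 libraries, had no UMI in these cells, which allows a level of up to 3.59 CPM (3 counts). *Map3k7cl* was at 4.58 CPM in the rest and at 12.7 CPM in other mesenchyme under the exclusions. *Ccl11* had no UMI in the 125 cells either, against 1.00 CPM. *Cd83*, also called higher in the 5 libraries, was at 9.57 CPM on 8 UMIs in these cells and 4.51 CPM in the rest. Under the exclusions other mesenchyme had *Cd83* at 11.1 CPM, above these cells. *Kazald1*, lower in members of the 5 libraries, was at 13.2 and 6.49 CPM with 11 UMIs in these cells, and at 13.2 CPM in other mesenchyme under the exclusions. With 1 such library these values have no replicate check.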

How the data were processed

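The deposited files held UMI counts per gene and cell, which the authors made with Cell Ranger 1.1 (v1 libraries) or 2.1 (v2 and Fev-Cre libraries) on mm10, per the labels with reporter sequences added for the Fev-Cre library. Single-cell suspensions of pooled mouse pancreata were measured. The 5 libraries of the rule had 3849 to 7897 barcodes and 15671934 to 77996305 UMIs, and the v2 E12.5 library 13197 barcodes and 127151679 UMIs, so rare genes in the 25 members of E17.5 rest on single UMIs.

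Cells with at least 200 genes were kept, in Python 3.11.15 (numpy 2.4.6, scipy 1.17.1, pandas 2.3.3, matplotlib 3.10.9). Counts were summed per class and library with at least 20 cells, and tested in edgeR 4.0.16 (R 4.3.3, TMM scaling, filterByExpr, quasi-likelihood test, library as a block, Benjamini-Hochberg adjustment over all genes tested). The 9 genes of the rule were not tested. Cells are not replicates. With the library as a block, p-values measure how the difference between classes within a library varied over libraries of unlike stage, kit and strain. Embryos were pooled, so the spread between embryos does not enter. Members and comparison cells came from the same suspensions, and deviations of members and other mesenchyme within a library correlated at r = 0.403 to 0.763, against at most 0.115 between libraries. DESeq2 1.42.0 and other settings were alternatives. On simulated data for members against other mesenchyme, 94% of 2-fold and 100% of 4-fold changes were recovered over 12274 genes. At the same threshold 9 unchanged genes passed. That threshold was an adjusted p below 0.05, without the 2-fold limit of the calls. Changed genes were drawn from those with higher counts in members, and all genes had 1 dispersion (0.02). These rates are therefore not those of the calls given here.

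Genes were named from a fixed rule (called, same direction in every library, at least 20 CPM, the largest changes), from the markers, and from gene lists. Members and lists were chosen with earlier results of these data known. For shares, cells were thinned to 2000 UMIs (seed 1). No doublet caller was run. Gene positions came from GENCODE M21 (GRCm38), which is not the counting annotation, and promoters from a RefSeq table in which 25 of 34 genes looked up were found.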

Additional observations from a re-analysis of the deposited data

Results flagged for a closer look

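The *Cav1* difference between members and other mesenchyme had another sign at E17.5, which rests on 1 library and few UMIs. Members minus other mesenchyme was -52.7 CPM and -154 CPM in the E14.5 v1 batches and -115 CPM in the Fev-Cre library, and 18.4 CPM at E17.5, where members had 10 UMIs. At E12.5 the levels were 21.4 CPM in members and 44.4 CPM in other mesenchyme. Other mesenchyme holds the *Upk3b* cells that the rule takes out of members, and with the same exclusions in both classes *Cav1* differed by 0.05 ± 0.15 over the 5 libraries (adjusted p = 0.981 in edgeR's quasi-likelihood test). The difference between stages was not tested.

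Cells that met the rule were also found in libraries outside the comparisons, 125 in the CD140a-depleted v2 library of E12.5 and 6 in that of E14.5. The 2 v2 libraries of E17.5, technical replicates per the paper, held 2 each (of 1083 and 1141 mesenchymal cells).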

How the results depend on the processing

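Most calls depended on the library block. With no replicate block, against other mesenchyme 0 genes were called higher and 0 lower by edgeR's quasi-likelihood test (98 and 229 at an unadjusted p under 0.05), against Barx1-only cells 0 and 0 (59 and 112), against Tcf21-only cells 0 and 0 (81 and 61) and against Nkx2-5/Tlx1 cells 0 (225) and 5. DESeq2 with the library in its design called 19 higher and 117 lower, 0 (117 at an unadjusted p under 0.05) and 42, 11 and 5, and 72 and 33 in the same order. With no filter on low counts 51 genes were called lower than in Tcf21-only cells.

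Against other mesenchyme, comparison cells under the rule's exclusions gave 19 higher and 36 lower, cells of the members' interquartile depth 21 and 79, cells with genes of another type left out 11 and 26, the v1 libraries 22 and 192, the E14.5 libraries 74 higher, and stricter thresholds (3 *Barx1*, 2 *Tcf21*) 210 lower. Interquartile depth and stricter thresholds left 13 and 5 members at E17.5, so that library dropped out. Leaving out cells with genes of another type left 2 in the Fev-Cre library, which dropped out likewise. These 3 settings thus rest on 4 libraries and changed the libraries as well as the cells. Leaving out 1 library in turn gave 22 to 62 higher and 192 to 425 lower against other mesenchyme, 2 to 11 and 50 to 85 against Barx1-only cells, 32 to 59 and 23 to 35 against Tcf21-only cells, and 94 to 129 and 46 to 70 against Nkx2-5/Tlx1 cells. The cause of these shifts was not tested.

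In the order E12.5, E14.5 batch 1, batch 2, Fev-Cre and E17.5, member shares were 5.31, 3.27, 3.35, 0.379 and 0.993% when thinned, 5.11, 1.34, 4.03, 1.08 and 0.396% under stricter thresholds, and 23.9, 10.8, 18.4, 7.02 and 6.57% under looser ones (1 *Barx1*). Single genes turned direction 2 times, *Ccl11* without the block (-0.28, adjusted p = 1.00 in edgeR) and *Hba-a1* under stricter thresholds (0.52), against 883 values on the same side of the threshold, 240 below it and 19 newly past it. The v2 libraries were not fitted, since 1 of them had at least 20 members.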
